A study of Xenopus laevis with 4 samples.

Results

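The sites described here are the cytosines that were read most often in the mRNA m5C map of Xenopus laevis embryos at stage 0. They were chosen by their coverage, and comprised the 725 sites with 2000 or more reads of the 16233 sites listed at stage 0. They lay in 501 of the 7140 listed genes. Coverage is the number of C and T reads at a cytosine. In RNA bisulfite sequencing (BS-seq), unmethylated cytosine is read as T and 5-methylcytosine (m5C) as C, so that the methylation level is the share of C reads. The series holds 2 groups of wild-type X. laevis: stage 25 embryos, which have begun to form organs, and stage 0 embryos, which carry mRNAs stored by the mother. For each group, RNA of about 200 pooled embryos was used for 2 libraries, and the deposited list of each stage combines both. No spread between replicates can therefore be given for any value below. The paper's text calls the replicates of its frog samples technical, whereas a supplementary figure legend calls replicates biological. The intervals are 95% Wilson intervals and cover counting error only.

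An egg is laid with a large store of mRNA, which directs the first cell divisions until the embryo begins to transcribe its own genome. Many of these stored mRNAs code for cyclins, replication factors, histones and proteins that bind RNA. In animals, mRNA m5C is deposited by enzymes of the NSUN family, of which NSUN2 and NSUN6 are the known mRNA methyltransferases. X. laevis is an allotetraploid frog. Many of its genes are present as an L and an S copy, named after the long and short chromosomes of the subgenomes, and the suffix of the gene name gives the copy.

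At stage 0, coverage of the listed sites ranged from 20 to 49613 reads. At the deeply covered sites, the median was 3273 reads, against 135 reads at the other 15508 sites. These sites were 4.47% of the listed sites and held 46.6% of the reads at listed sites, 3832107 of 8227250, which follows from the rule that chose them. Just inside the minimum were sites in LOC108715148 (naa40.S in RefSeq) with 2003 reads and a level of 30.7%, in cldn6.2.S with 2006 reads and 73.5%, and in LOC108714551 (cep78.L in RefSeq) with 2007 reads and 16.5%. Just outside were sites in nelfb.L with 1999 reads and 14.2%, in ncapd2.S with 1998 reads and 53.4%, and in ddx19b.L with 1996 reads and 14.6%. The smallest number of C reads at a deeply covered site was 205. The intervals of the levels were accordingly narrow, with a median half-width of 1.30 percentage points and a largest one of 2.15, against a median of 6.52 at the other sites.

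Coverage of the listed sites was then compared within genes. In 311 of the 501 genes, 2 or more sites of any coverage were listed, and the highest coverage in a gene was a median of 3.90 times the lowest (quartiles 1.86 and 11.05). In 82 genes this ratio was 10 or more. In cldn6.1.S, which codes for a claudin of cell junctions, coverage was 33987 reads at position 102059460 of chromosome 9_10S, 10063 at position 102059953 and 33 at position 102060452. All positions refer to genome build v9.2. In LOC108709196 on chromosome 2S, it was 36796 reads at position 8145499 and 241 at position 8145559. Each of these genes was included through a site of 2000 or more reads, while its other listed sites could have as few as 20. Wide ratios are thus favoured by the rule and cannot show how well coverage stands for mRNA abundance. The sites are called deeply covered here, since the abundance of the mRNAs themselves was not measured. Of the 14 egg and oocyte marker genes looked up, 8 had a listed site at stage 0, and h1foo, npm2 and ccnb5 had a deeply covered one. None of 18 marker genes of differentiated tissues (muscle, neural tissue, cartilage, blood and others) had a site in the stage 0 list, and none had a site in the stage 25 list, which held the 3 egg markers h1foo, npm2 and ccnb5. A list holds methylated sites, so a gene without one may still be expressed.

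The first question was how strongly the deeply covered sites were methylated. Their median level was 20.8% (quartiles 13.8% and 37.1%, range 10.01% to 95.6%), and that of the other sites was 21.1% (quartiles 13.9% and 37.6%). The means were 29.3% ± 21.3 (SD over sites, n = 725) and 29.4% ± 21.1 (SD over sites, n = 15508). Levels of 50% or more were found at 117 deeply covered sites, which is 16.1%, beside 16.3% of all listed sites. Levels under 20% were found at 345 sites (47.6%, beside 47.2% of all), and levels of 80% or more at 32 sites (4.41%, beside 4.78% of all). The distributions of levels therefore lay almost on top of each other. As sites are not replicates and share libraries, this difference was not tested. The calls required a level of at least 10%, so these are levels of called sites and not of all cytosines in the mRNAs. They also required a minimum number of C reads, and the smallest number at the other sites was 4. At the least covered sites this sets a floor above 10%, so the groups did not face the same minimum.

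**Figure D1:**
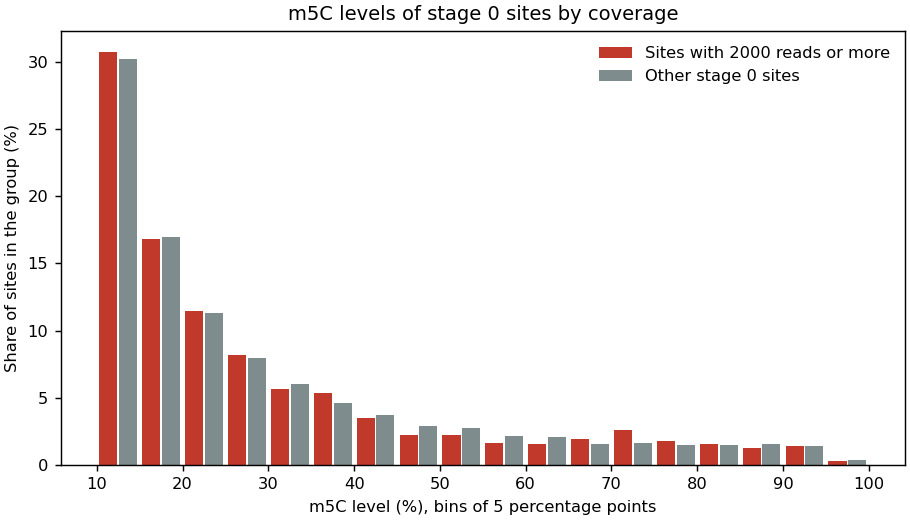
Share of sites (vertical axis, percent of the group) by m5C level (horizontal axis, percent, bins of 5 percentage points) for the 725 stage 0 sites with 2000 or more reads and the 15508 other stage 0 sites. The bars of both groups have nearly the same height, with 30.8% and 30.3% of sites in the lowest bin.

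The deeply covered sites were also divided by depth. The median level was 21.7% at the 301 sites with 2000 to under 3000 reads, 20.0% at the 218 sites with 3000 to under 5000 reads, 20.8% at the 132 sites with 5000 to under 10000 reads and 20.9% at the 74 sites with 10000 reads or more. The share of sites with a level of 50% or more was lower in each deeper band, at 19.3%, 15.1%, 12.9% and 12.2%, which was not tested. The last band held 9 such sites, so its share rests on few sites. The share with a level of 80% or more did not fall steadily, at 4.65%, 4.13%, 3.79% and 5.41% in the same order. Pooled over all reads, 29.3% of the reads at deeply covered sites were C, the same share to this precision as at the other sites.

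**Figure D2:**
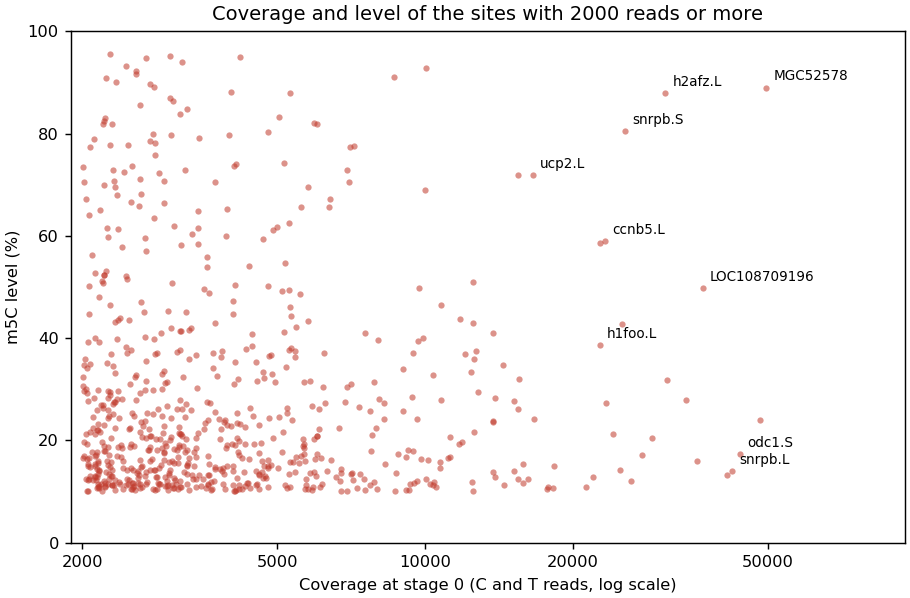
Coverage at stage 0 (horizontal axis, C and T reads, log scale) and m5C level (vertical axis, percent) of the 725 sites with 2000 or more reads, 1 point per site, with selected genes named. Sites of low and of high level are seen along the whole axis, from 2003 to 49613 reads.

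The highest coverage was that of MGC52578, a gene without a descriptive name in the sources used here. Its 3 deeply covered sites lay on chromosome 1L (plus strand). Coverage was 49613 reads at position 42337449, 48153 at position 42337475 and 41323 at position 42336066. Their levels were 89.0% (88.7% to 89.2%), 24.0% (23.6% to 24.4%) and 13.2% (12.9% to 13.5%). So the most deeply read gene held both a nearly complete site and a site close to the calling minimum. Next came odc1.S, which codes for ornithine decarboxylase, the enzyme of the first step of polyamine synthesis, with a level of 17.3% on 43859 reads (chromosome 5S, position 119385872, minus strand). In snrpb.L, coding for a core protein of the spliceosomal snRNPs, the level was 14.0% on 42165 reads (chromosome 9_10L, position 31130038, minus strand).

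Of the other genes with the highest coverage, h2afz.L stood out by its level. It codes for the histone variant H2A.Z, and 27161 of 30890 reads were C, a level of 87.9% (87.6% to 88.3%, chromosome 1L, position 68081386). The site of LOC108709196 had 49.8% on 36796 reads. In hmg-17 (hmgn2.S in RefSeq), which codes for a nucleosome-binding protein, the level was 31.8% on 31129 reads (chromosome 2S, position 63012099). The remaining genes of this group had low levels, with 28.0% in cldn6.1.S, 20.4% in ilf2.S on 29007 reads, 17.1% in hn1.S on 27708 reads and 16.0% in LOC108701308 on 35809 reads. ilf2 codes for a protein of complexes that bind double-stranded RNA.

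The highest levels, ranked by the lower bound of their intervals, were found in mRNAs of RNA-processing, chromatin and cytoskeletal proteins, among others. In sltm.S, a gene related to those of the scaffold attachment factors, 2180 of 2280 reads were C, a level of 95.6% (94.7% to 96.4%, chromosome 3S, position 53683564). The level was 94.97% (94.3% to 95.6%) on 4191 reads in mettl16.L, which codes for an m6A methyltransferase of U6 snRNA. It was 95.1% (94.2% to 95.8%) on 3023 reads in syncrip.S, coding for an hnRNP. These 3 sites were methylated in nearly each read. They were followed by sites in the actin nucleator gene spire1.S with 94.7%, the kinase family gene vrk3.L with 94.0%, the chromatin remodelling gene smarcc1.L with 93.2% and the splicing factor gene cdc5l.L with 92.2%. The coverage of the sites named in this group was between 2280 and 4191 reads.

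At the lower end, levels were so precisely measured that their intervals closed around the calling minimum of 10%. In wee2.L, coding for an oocyte kinase that inhibits CDK1, 1265 of 12527 reads were C, which is 10.1% (9.58% to 10.6%). In cirbp.S, coding for a cold-inducible RNA-binding protein, the level was 10.5% (10.1% to 10.97%) on 17726 reads. The lower bound of cirbp.S was thus just above the minimum, and that of wee2.L just below it. The other sites with the lowest upper bounds lay in rrm2.1.L (10.04%, 6923 reads), slc16a3.L (10.04%, 6731 reads), rpl5.S (10.2%, 8676 reads), h2afz.S (10.3%, 9153 reads), mettl2b.L (10.03%, 4089 reads) and incenp.L (10.4%, 9272 reads).

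Next, several sites within a gene were compared. A single deeply covered site was found in 349 genes (69.7%), 2 in 102 genes, 3 in 34, 4 in 12, 5 in 3 and 7 in 1 gene. Counting sites of any coverage, 62.1% of the 501 genes had 2 or more, beside 54.6% of all listed genes, and the mean was 2.42 sites a gene, against 2.26 in the other genes. A gene with more listed sites has more chances to hold a deeply covered one, so nothing is read from these higher values. In the 152 genes with 2 or more deeply covered sites, the highest and lowest level differed by a median of 19.0 percentage points (quartiles 7.18 and 39.3, largest 84.9). In 28 of these genes each site was under 20%, in 3 each was at 50% or more, and 30 genes held a site of each kind. In 29 of the 152 genes the range was 50 percentage points or more, and in 45 it was under 10. In the 226 genes with listed sites on either side of 2000 reads, the median level was 21.5% at the 324 deeply covered sites and 20.6% at the 487 less covered ones. The site with the highest level of the gene was a deeply covered one in 108 of these genes. The share to compare this count with, given 324 and 487 sites, was not computed, so nothing is read from it.

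The largest number of sites, 7, was in orc1.L, which codes for the largest subunit of the origin recognition complex. They lay on the minus strand of chromosome 4L between positions 86583385 and 86610153. A level of 79.1% (77.7% to 80.4%) was measured at position 86598270 on 3454 reads. The other 6 had levels between 12.5% and 26.3%, so that a single site of this gene was far above the rest. The site at position 86598255, which is 15 nt away, had 13.2% (12.1% to 14.3%) on 3609 reads.

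Several of the other genes with the most sites act in mitosis. In cdc20.L, coding for an activator of the anaphase-promoting complex, 5 sites on chromosome 4L had levels of 49.3%, 16.9%, 20.2%, 27.9% and 32.8% along the gene, on 3812 to 10790 reads. In kif11.S, coding for the mitotic kinesin that pushes spindle poles apart, the levels of 5 sites were closer together, from 10.9% to 21.7%. The condensin subunit gene ncapd2.S had 5 sites, at 80.2% in 1 case and between 22.5% and 37.2% in the other 4. LOC108701628, which is plk1.L in RefSeq and codes for polo-like kinase 1, had 4 sites at 12.5%, 18.2%, 36.9% and 10.7% along chromosome 9_10L.

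High and low levels were also mixed in most of the remaining genes with 4 sites that are named here. In mcm7.S, coding for a subunit of the replicative helicase, 2 sites had 82.0% and 64.9%, and 2 sites had 11.4% and 10.5%. The levels in fubp1.L, coding for a nucleic acid-binding regulator, were 41.1%, 34.4%, 13.6% and 78.6% along the gene. In hnrnpc.L, coding for a pre-mRNA-binding protein, they were 11.3%, 54.8%, 39.5% and 39.7%. LOC108719469 on chromosome 6L had 33.4%, 35.3%, 18.0% and 10.8%.

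**Figure D3:**
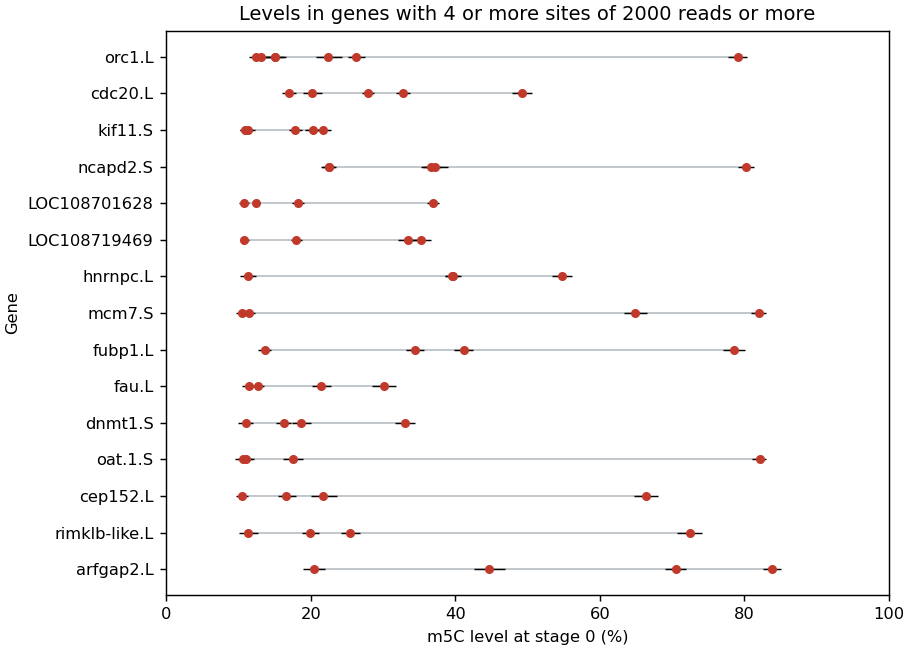
m5C level at stage 0 (horizontal axis, percent) of each site in 15 of the 16 genes (vertical axis) with 4 or more sites of 2000 or more reads, ordered by number of sites and summed coverage. Points are sites, black bars are 95% Wilson intervals and grey lines span the sites of a gene. Intervals are narrow compared with the distances between sites, as in orc1.L with 6 sites up to 26.3% and 1 at 79.1%.

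Among the largest differences between sites of 1 gene were those in mettl16.L, plin2.S, MGC52578 and cnot8.S. In mettl16.L, the site at position 47037294 had 94.97% on 4191 reads, and that at position 47059069 had 10.1% (9.17% to 11.01%) on 4079 reads. In plin2.S, which codes for a protein of the lipid droplet surface, the levels were 91.1% on 8643 reads and 10.6% on 7987 reads (chromosome 1S, positions 96463908 and 96466046). Coverage was nearly equal within these pairs, with ratios of 1.03 and 1.08, so the contrast was measured on similar numbers of reads. In cnot8.S, coding for a deadenylase of the CCR4-NOT complex, the levels were 86.9% and 13.1% on 3018 and 2124 reads.

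Sites that lie close together can be read by the same fragments, although the counts per site do not show which reads were shared. Of neighbouring deeply covered sites, 34 pairs were within 50 nt. The ratio of their coverages was at most 1.55, yet their levels differed by more than 20 percentage points in 12 pairs and by more than 50 in 6. In lrrc8e.L, a gene of the volume-regulated anion channels, sites 7 nt apart had 78.9% and 18.0% on 2109 and 2217 reads. In the spliceosome gene sf3a3.S, sites 49 nt apart had 21.1% and 83.3%. The largest difference was 65.9 percentage points within 50 nt and 84.9 among the pairs farther apart. The median difference was 17.2 percentage points in the 25 pairs at 2 to 50 nt and 14.5 in the 190 pairs farther apart. Before calling, the authors discarded reads in which many C bases were left, and the part of this filter in the levels of close neighbours was not tested.

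In 9 pairs the methylated cytosines were directly adjacent. The levels of adjacent cytosines differed by less than 10 percentage points in 7 of the 9 pairs, with a median of 6.74. The exceptions were ccna1.S, coding for cyclin A1, with 77.5% at position 134820766 and 26.5% at position 134820767 (chromosome 2S, minus strand), and anln-like.1.L with 35.1% and 50.8%. These genes were named after their values were seen. In 6 of the 9 pairs, the cytosine nearer the 5′ end of the mRNA had the higher level.

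It was then asked how the sites were spread over the L and S copies of genes. Gene names ended in .L in 242 and in .S in 188 of the 501 genes. Of the sites in genes with either suffix, 55.5% were in L copies, against 59.5% among the other sites. Both copies had a deeply covered site in 46 gene pairs, which is 11.98% of the 384 names with a deeply covered site. Beside this, both copies had a site of any coverage in 22.0% of all listed names. The rule used coverage, so nothing is read from the lower share. For the other 338 names, the second copy was not listed at all in 227 cases, and in 111 cases its best-covered site had between 31 and 1928 reads, with a median of 566. Near-identical stretches of the copies can share reads, and how the mapping divided these was not tested. For the 40 pairs on assembled chromosomes, the suffix and the chromosome went together in both copies. In all, 9 of the 398 genes with a suffix on assembled chromosomes bore the suffix of the other subgenome, such as smc3.S on chromosome 7L, named after its values were seen.

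In the 46 pairs, the site of highest coverage was taken from each copy. Whether these are the same cytosine in both copies cannot be said, as the copies were not aligned here, so the levels are given side by side without a test. The median difference in level was 12.8 percentage points (quartiles 6.34 and 29.2, largest 77.6). The level was higher in the L copy in 26 pairs and in the S copy in 20. Intervals overlapped in 3 pairs, differences were under 5 percentage points in 10 pairs, and they were over 30 in 12. The coverages of the copies, both of which had to reach 2000 reads, differed by a median of 1.41 times and at most 7.96 times, and were higher in the L copy in 18 pairs and in the S copy in 28.

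The largest differences were in h2afz, plin2 and snrpb. For h2afz, a single site was listed in each copy, at 87.9% (30890 reads) in the L copy and 10.3% (9153 reads) in the S copy. For snrpb, also with 1 listed site in each copy, the level was 14.0% in the L copy and 80.4% (79.9% to 80.9%, 25602 reads) in the S copy. The sign of the difference thus varied, with L far higher for h2afz and S far higher for snrpb. For plin2, named here for its difference, the best-covered sites had 24.3% in the L copy and 91.1% in the S copy, on 8643 reads. The second site of the S copy, on 7987 reads, had 10.6%, which is below the L copy. The sign for plin2 therefore depends on which S site is taken.

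Other pairs were close at the best-covered site of each copy. For ccnb2, which codes for a B-type cyclin, the level was 42.8% (25228 reads) in the L copy and 41.1% (13732 reads) in the S copy. For odc1, it was 15.1% in the L copy on 18309 reads and 17.3% in the S copy on 43859 reads. Their intervals did not overlap, so differences of about 2 percentage points exceeded counting error at these sites. The other deeply covered sites of odc1.S had 13.9% and 31.5%, so the sign for odc1 depends on which S site is taken. For cldn6.1, the levels were 21.3% and 28.0%, and for ilf2 they were 11.6% and 20.4%, in the L and the S copy. For cdc20, the sites of both copies overlapped in level, with 16.9% to 49.3% in the L copy and 12.8% and 44.3% in the S copy. For mcm7, 3 sites of the L copy had 16.4% to 24.2%, and 4 sites of the S copy had 10.5% to 82.0%. For hnrnpc, the best-covered sites had 39.5% in the L copy and 46.4% in the S copy.

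**Figure D4:**
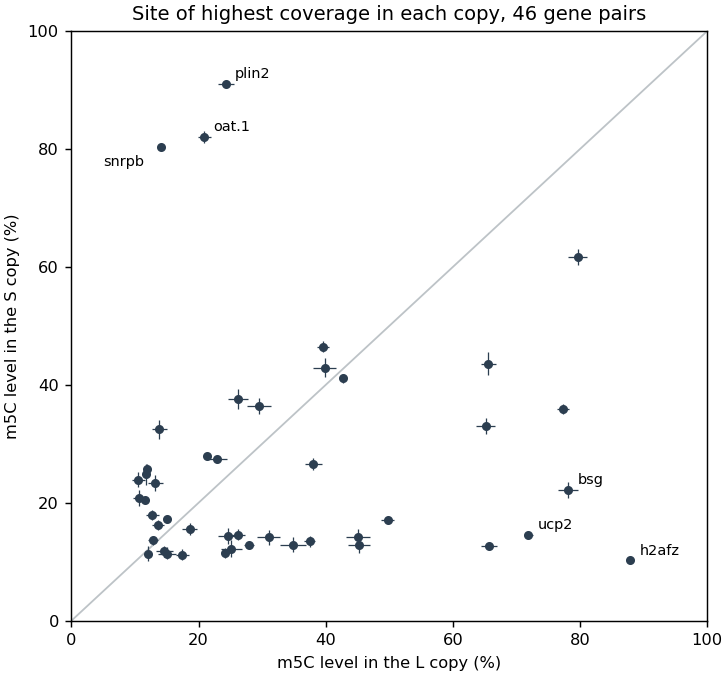
m5C level of the site of highest coverage in the L copy (horizontal axis, percent) and in the S copy (vertical axis, percent) of 46 gene pairs, with 95% Wilson intervals and the line of equal levels. Selected pairs that differ by more than 50 percentage points are named. Of the pairs, 26 lie below the line, with h2afz the farthest from it, and 20 lie above it.

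The genes were then looked up by function, in lists chosen with earlier results of these data known. Over all listed genes, 7.02% had a deeply covered site. As coverage chose the sites, the shares below describe which mRNAs are included and are not tested. On the cell cycle list, 22 of 60 symbols had a deeply covered site, 25 had less covered sites, and 13 had no site in the list. By gene copy, 30 of 67 listed cell cycle genes (44.8%) were included, with 62 sites of a median level of 20.0%. The best-covered ones were in ccnb2.L with 42.8% on 25228 reads, ccnb5.L with 59.0% on 23320 reads, cdc20.S with 12.8% on 21988 reads, mcm7.L with 24.2% on 16658 reads, LOC108701628 (plk1.L) with 12.5% on 16217 reads and top1.2.S, a topoisomerase I gene, with 34.8% on 14422 reads. A level of 50% or more was found at 6 of these 62 sites, beside 16.1% of all deeply covered sites, and this difference was not tested.

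Chromatin and histone genes were included at a similar share, 16 of 38 listed genes (42.1%). The median level of their 27 sites was 33.0%, beside 20.8% of all deeply covered sites, and 7 of them were at 50% or more, which was not tested. Besides h2afz and ncapd2.S, the best-covered genes of this list were h1foo.L, the oocyte linker histone, with 38.7% on 22726 reads, hmgb3.S with 29.5% on 12804 reads, h3f3b.L, a histone H3.3 gene, with 68.9% on 9989 reads and 40.9% on 7537 reads, and npm2.L, coding for a chaperone that remodels sperm chromatin, with 42.1% on 5449 reads. uhrf1.S and dnmt1, whose products act together in maintenance of DNA methylation, had levels of 24.6% and 89.8% in uhrf1.S, 65.2% in dnmt1.L and 10.99% to 33.0% at 4 sites of dnmt1.S.

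For ribosomal protein and translation factor genes, the median levels were below the 20.8% of all deeply covered sites, on few sites and without a test. Of the 14 sites in 13 ribosomal protein genes (27.7% of those listed), 2 were at 50% or more, in rpl30.L with 74.2% and rpl32.L with 52.8%, and the median was 14.3%. The best-covered were in rps19.S with 11.3% on 14480 reads, rps15.S with 11.5% on 10235 reads and rpl5.S. Of the 12 sites in 10 translation factor genes (25.6%), the median was 13.8%. eif1.L, coding for a factor of start codon choice, had 14.2% on 24918 reads, and eef1b2.L had 16.1% on 10121 reads. Higher levels were measured in eif3c.L with 82.0%, at 1 of 3 sites in eif4g2.L with 82.4%, and in eif2s2.L, coding for a subunit of initiation factor eIF2, with 47.3% on 4054 reads.

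Among genes for proteins that bind and control maternal mRNA, 7 of 44 listed genes (15.9%) were included. They were cirbp.S with 10.5% and 43.4%, both copies of hnrnpab with 26.1% in the L copy and 14.6% in the S copy, khsrp.L with 20.8% and 16.2%, the germ plasm helicase gene ddx25.L with 62.6%, cpeb1.L, coding for the cytoplasmic polyadenylation element binding protein, with 13.5%, and pabpc1.S, coding for a poly(A)-binding protein, with 37.6%. Of localised and axis-forming maternal mRNAs, 7 of 28 listed genes (25.0%) were included. The T-box factor gene vegt.L, whose mRNA is stored in the vegetal cortex, had 13.4% and 15.7% on 3273 and 3128 reads. The Wnt pathway genes dvl2.L and ctnnb1.L had 10.3% and 22.4%, and dnd1.L, which acts in germ cells, had 29.9%. This list also held ddx25.L with 62.6%, plin2.L with 24.3% and plin2.S with 91.1% and 10.6%. LOC108718903, which is hwa.L in RefSeq and was named after its values were seen, had 29.7% on 2370 reads.

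For the remaining lists, the shares were closer to the 7.02% of all listed genes. Of 43 listed ubiquitin and proteasome genes, 3 were included (6.98%). Among them were btrc.L at 16.7% and 21.6% and LOC108707155 (ubc.S in RefSeq) at 14.2% and 85.6%. Of 33 listed cytoskeleton genes, 3 were included (9.09%), namely krt8.L with 19.2%, pfn1.S with 25.7% and tacc3.S with 14.1% to 40.0%. This share depends on the symbols chosen. The tubulin gene tuba3c.L, with 23.5% on 13728 reads and named after its values were seen, was not on the list. Of 27 listed genes of mitochondrial energy supply, 3 were included (11.1%), among them cycs.S with 32.3% and atp5g3.L with 20.3%. Genes were matched by symbol, so LOC108701385 (atp5mc3.L in RefSeq), with 24.5% on 3237 reads, was not counted. It was named after its values were seen.

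Last, it was asked which deeply covered sites were listed again in stage 25 embryos. These were 11 of the 725 sites, or 1.52%, beside 25 of the 15508 other sites, or 0.161%, and 0.222% of all stage 0 sites. Each was in a different gene, and 24.4% of the 45 stage 25 sites were among them. A call at stage 25 also needs a minimum coverage, and the rule chose deeply covered sites, so nothing is read from the higher share. Of the 74 sites with 10000 reads or more at stage 0, 5 were listed again. At stage 0, the levels of the 11 sites had a median of 59.0%, the lowest being 28.4%, while the 714 sites that were not listed again had a median of 20.5%. The 25 other sites listed at both stages had a stage 0 median of 63.8%, so this trait was shared with less covered sites. None of the 345 deeply covered sites with a level under 20% was listed again. Of the 7322 less covered sites under 20%, only those in grn.L (15.7%) and anxa1 (13.6%) were. Nothing is read from this absence. For sites that are not in the list of stage 25, low coverage and a low level cannot be told apart. The same holds, in pooled whole embryos, for fewer cells with an mRNA and less of it per cell. A second site of grhpr.2.L was the only further stage 25 site in the 501 genes.

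At 6 of the 11 sites, the level was lower at stage 25 by Fisher's exact test (two-sided, on C and T reads, Benjamini-Hochberg adjustment over the 36 sites listed at both stages), and at 0 sites it was higher. At an unadjusted threshold of 0.05 the number of higher sites was also 0. Beside this, 69.4% of all sites listed at both stages were called lower by the adjusted test. Among the 25 sites with less coverage at stage 0, 19 were called lower. The test compares the pooled reads of each stage and covers counting error, not the spread between libraries or between batches of embryos.

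Clear differences between the stages were found in hdac8.L and plin2.S. In hdac8.L, coding for a histone deacetylase (chromosome 8L, position 15127650), 37 of 222 reads were C at stage 25, or 16.7% (12.3% to 22.1%), against 73.6% (72.2% to 74.9%) of 4073 at stage 0, with an adjusted p of 4.11e-65 by Fisher's exact test. In plin2.S, 17 of 93 reads were C at stage 25, or 18.3% (11.7% to 27.3%), against 91.1% (90.5% to 91.7%) of 8643 at stage 0, with an adjusted p of 9.25e-61 by the same exact test. The other plin2.S site, at 10.6%, was not listed at stage 25.

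In ddx25.L, grhpr.2.L and npm2.L, the levels of the stages were closer to each other. In ddx25.L, 31 of 130 reads were C at stage 25, or 23.8% (17.3% to 31.9%), against 62.6% (61.3% to 63.9%) of 5288 at stage 0, with an adjusted p of 2.12e-18 by the exact test. A site of this gene at position 67480939, which had 94.2% on 828 reads at stage 0, was absent from the stage 25 list. In grhpr.2.L, coding for a glyoxylate reductase, 514 of 985 reads were C at position 106650569 at stage 25, or 52.2% (49.1% to 55.3%), against 84.7% (83.5% to 85.9%) of 3268 at stage 0, with an adjusted p of 7.38e-90 by the exact test. In npm2.L, 19 of 72 reads were C at stage 25, or 26.4% (17.6% to 37.6%), against 42.1% (40.8% to 43.4%) of 5449 at stage 0, with an adjusted p of 0.0117 by the exact test. With Holm adjustment of Fisher's exact test, npm2.L no longer passed (adjusted p = 0.102).

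No difference was detected at the other 5 sites at this depth. In h1foo.L, 9 of 21 reads were C at stage 25 (42.9%, 24.5% to 63.5%), against 38.7% at stage 0. In ccnb5.L, coding for a B-type cyclin, 23 of 41 reads were C at stage 25 (56.1%, 41.0% to 70.1%), against 59.0% at stage 0. In top1.2.S, 13 of 32 reads were C (40.6%, 25.5% to 57.7%), against 34.8% at stage 0. The intervals at stage 25 are wide and do not show that the levels were equal. In LOC108709196, 25 of 44 reads were C at stage 25 (56.8%, 42.2% to 70.3%), against 49.8% at stage 0. In LOC108703550, 38 of 101 were C at stage 25 (37.6%, 28.8% to 47.4%), against 28.4% (26.5% to 30.2%) of 2261 at stage 0. This site had the smallest p-value of the 5, which was 0.0554 before and 0.0767 after adjustment of Fisher's exact test. Coverage was 451 to 1082 times lower at stage 25 at the sites of top1.2.S, ccnb5.L, LOC108709196 and h1foo.L, and 22.4 times lower at that of LOC108703550, without scaling for library size.

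**Figure D5:**
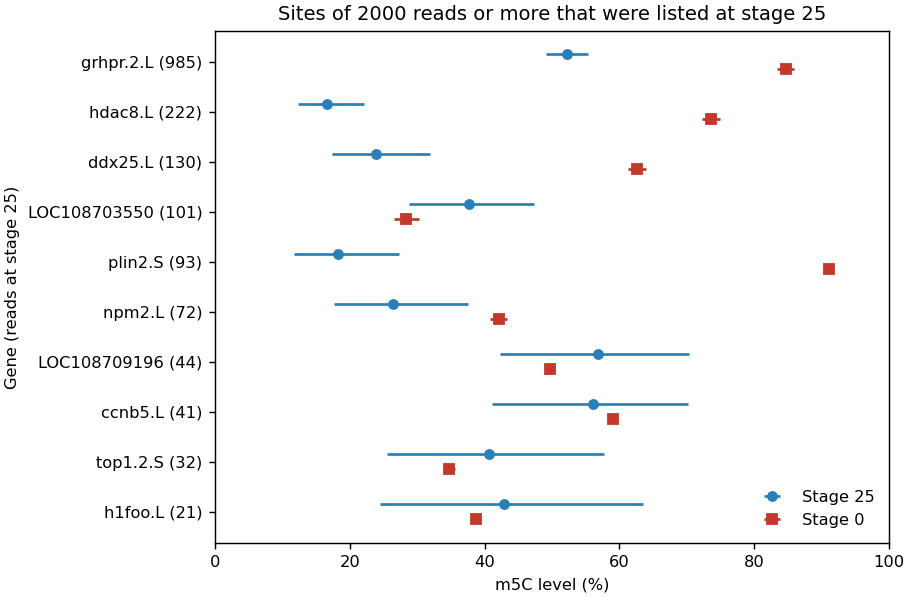
m5C level (horizontal axis, percent) at stage 25 (blue circles, upper of each pair) and at stage 0 (red squares) of 10 of the 11 sites with 2000 or more reads at stage 0 that were listed at both stages, ordered by reads at stage 25 (in brackets), with 95% Wilson intervals. In hdac8.L, with 222 reads, stage 25 lies at 16.7% and stage 0 at 73.6%, whereas the wide intervals of the 4 genes with 21 to 44 reads include the stage 0 levels.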

How the data were processed

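RNA BS-seq was performed on polyadenylated RNA of X. laevis embryos at stage 25 and stage 0, with 2 libraries each. Reads were trimmed by the authors (cutadapt, Trimmomatic), then mapped to the in silico converted v9.2 genome with HISAT2 and the rest to the transcriptome with Bowtie2, and called sites with minimum values of coverage, C reads and level. The deposited coverage is a count of C and T reads, not normalized. The level was deposited as a fraction and is printed here as a percent. A combined p-value of each call, also deposited by the authors, entered no test. Both replicates were combined by the authors. Titles of the stage 25 libraries start with XT, but their organism label gives X. laevis.

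Sites with coverage of at least 2000 reads at stage 0 were taken. The members and gene lists were chosen with earlier results of these data known. C reads were coverage multiplied by level. Sites listed at both stages were compared by Fisher's exact test, checked on simulated binomial counts. The simulation held no spread between libraries and no calling minimum, so the check does not cover these. Alternatives were other minimum values of coverage and level, 1 site per gene, assembled chromosomes and Holm adjustment. Named genes were those of highest coverage, with the most sites, with extreme Wilson bounds, with the largest differences, in L and S pairs, on the gene lists, or listed at stage 25. A few genes that meet this rule are not reported here. Of 501 gene names, 471 matched the RefSeq list of assembly v10.1, used for names alone. Positions were copied from the deposited lists. The first base may be numbered 0 or 1, which the sources used here do not give. Sequence, motif and genic region were not analysed here. Tests were run in scipy 1.17.1 under Python 3.11.15, tables were handled with pandas 2.3.3 (numpy 2.4.6), and plots were drawn with matplotlib 3.10.9.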

Additional observations from a re-analysis of the deposited data

How the results depend on the processing

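No paired analysis was possible because both replicates of a stage were merged into 1 value for each site before deposit, which also prevents leaving out a replicate. The alternatives of names and of copies with 1 listed site each were chosen after seeing the data. With coverage minimum values of 1000 and 5000 reads, there were 1685 and 206 sites in 1062 and 148 genes, of which 393 and 41 genes had 2 or more sites, with 107 and 20 L and S pairs. With level minimum values of 20% and 30%, there were 380 and 238 sites in 306 and 206 genes, 55 and 27 genes with 2 or more sites, and 24 and 15 pairs, and the median level was 36.2% and 49.7%, since sites of low level are left out. The share of sites with a level of 50% or more was 12.6% at 5000 reads and 16.4% at 1000 reads. It was 16.0% with 1 site per gene and 16.1% on assembled chromosomes. All these sets overlap with the reported one. The median level stayed between 20.7% and 20.8% under the coverage minimum values, 1 site per gene and assembled chromosomes. With RefSeq symbols in place of LOC identifiers, 49 pairs were found, and plk1, cldn7 and ext1 were added. The number of sites listed at stage 25 was 8 to 14, and that of sites lower at stage 25 by Fisher's exact test was 4 to 8. Depth at stage 25 limits the levels of the 4 sites with 21 to 44 reads.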
